A study of Homo sapiens with 11 samples.

Results

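The early response to DNMT3A knockout was examined in 6 RNA libraries, 3 taken after 5 days of induction and 3 uninduced, of the 9 RNA libraries and 11 samples in the series. All 6 came from Z138, an established human mantle cell lymphoma (MCL) line, and from a single clone, clone 7. The clone carries Cas9 with a red fluorescent reporter (CAS9-RFP) and 2 guides against DNMT3A (sgDNMT3A), which doxycycline switches on. The uninduced libraries had the same constructs and no treatment. The day 5 libraries, labelled DNMT3A KO, had doxycycline at 2 ng/mL for 5 days. Each of the 3 replicates was a vial frozen separately and induced on its own day, with the RNA of 2 technical duplicates pooled. No guide-free library with doxycycline was among those analysed, so effects of the drug, of Cas9 and of the knockout cannot be told apart. Of 60656 rows in the deposited table, 15045 reached 1 TPM (a relative transcript abundance) in at least 3 of the 9 RNA libraries and were compared. Differences are on the log2(TPM + 1) scale, which understates changes of low genes. Each was also taken between the day 5 and the uninduced library of the same replicate number.

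DNMT3A is one of the enzymes that place new methyl groups on cytosine, mainly where a guanine follows (CpG). DNMT1, with its partner UHRF1, copies existing methylation onto new DNA strands, and the TET enzymes oxidise it as a step toward removal. Methylation of a CpG-rich promoter usually goes with a silent gene. In blood DNMT3A is best known as a gene often mutated in myeloid leukaemia. Methylation was not measured in the files used here.

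At day 5 a single row of the 15045 passed limma's test, AC010323.1, which rose (adjusted p under 0.05 in 0.00665% of rows). All other genes named here did not pass (adjusted p = 1.00 for each), and their values are given as measured. Levels are in TPM, and a fold change is the day 5 mean minus the uninduced mean of log2(TPM + 1) over 3 libraries each.

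The transcript of the targeted gene was no lower at day 5 than before induction. DNMT3A (chr2:25227874-25342590, RefSeq GRCh38.p14) had 10.1, 9.71 and 10.4 TPM before induction (replicates 1 to 3) and 18.9, 10.9 and 10.0 TPM at day 5. Day 5 replicate 1 stood well above the uninduced range and replicate 3 within it. Within replicate numbers the differences were 0.84, 0.15 and −0.05, which gave a log2 fold change of 0.32 (SE 0.21, 95% interval −0.16 to 0.79). Cas9 cuts leave small insertions and deletions that need not lower the RNA, and TPM shows neither these nor the protein, so whether the gene was knocked out is not seen in these values.

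The genes around the cut site stayed close to their uninduced levels. Within 1 Mb of DNMT3A 14 other genes were tested, of which 9 lay above and 5 below their uninduced level, with a median log2 fold change of 0.03. None of the 14 separated the day 5 from the uninduced libraries, where 5.56% of all tested rows did. KIF3C, a kinesin motor subunit, went from 4.60 ± 0.35 to 5.04 ± 0.63 TPM (SD, n = 3). ADCY3, an adenylate cyclase, had the widest difference of these neighbours, with 7.97 ± 1.33 and 6.64 ± 1.97 TPM. Over whole chromosomes the median log2 fold change ran from −0.058 on chromosome 19 to 0.015 on chromosome 13.

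The writers, readers and erasers of DNA methylation had a list median near that of all rows. Of 20 genes on this list, DNMT3A among them, 19 were tested, 9 above and 10 below 0, with a median log2 fold change of −0.01 where all tested rows had −0.02. DNMT1 stood at 183, 183 and 165 TPM in uninduced and 159, 168 and 159 TPM in day 5 libraries, a log2 fold change of −0.13 (SE 0.09). DNMT3B, the second de novo enzyme, stood at 8.17, 8.38 and 8.76 TPM against 7.74, 7.99 and 8.92 TPM, and its groups overlapped. UHRF1 was uneven, at 71.9, 93.6 and 53.6 TPM against 30.8, 77.4 and 51.1 TPM, so that replicate number 1 alone carried a difference past 1 (−1.20). TET2, which oxidises methylated cytosine, stood at 4.22, 4.47 and 4.035 TPM against 5.17, 4.48 and 3.82 TPM. MBD3, a subunit of the NuRD repressor complex, had the smallest p of the list, with 66.3, 63.5 and 57.0 TPM against 39.7, 61.4 and 49.5 TPM.

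The libraries carried the profile of the labelled cells. Of 14 markers of mantle cell lymphoma and B cells 13 were present, CD5 being listed at 0, and they summed to 10351 to 12892 TPM in uninduced and 9901 to 11257 TPM in day 5 libraries. CCND1, the cyclin that defines mantle cell lymphoma, stood at 1105, 1095 and 1132 TPM against 963, 1060 and 1051 TPM. The 10 T and NK cell markers summed to at most 1.49 TPM and the 10 myeloid markers to at most 0.94 TPM, and all 8 erythroid markers were listed at 0. Each RNA library had between 21590 and 22895 rows above 0, and its 100 highest rows held 33.3% to 36.9% of the TPM. Sequencing depth is unknown.

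What differed between day 5 and uninduced cells was mostly particular to a replicate. Across the tested rows, the differences of numbers 1 and 2 had a Pearson r of 0.005, those of numbers 1 and 3 of −0.018, and those of numbers 2 and 3 of 0.033. Spearman's rho was −0.040, −0.020 and 0.114 in the same order. These are correlations across genes, which are not independent replicates. The sign was shared by 48.0%, 48.5% and 55.4% of rows in the same order. In 541, 504 and 429 rows the difference within a number reached 1 on the log2 scale, and 158 rows did so with 1 sign in 2 of the numbers and 14 in all 3.

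**Figure D1:**
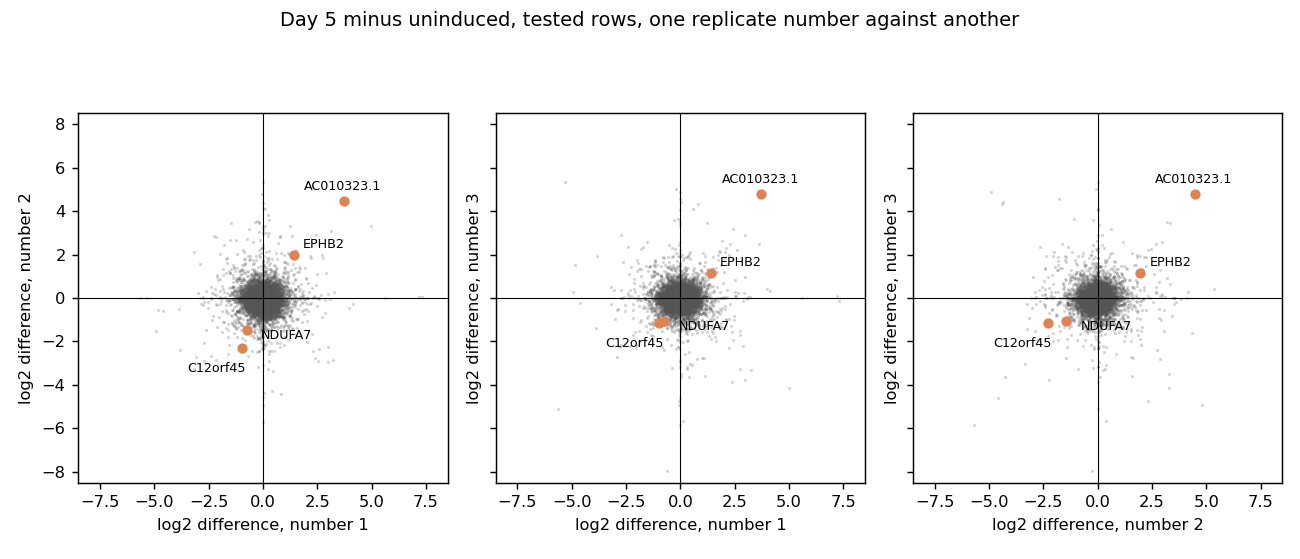
Difference of day 5 minus uninduced on the log2(TPM + 1) scale for each of the 15045 tested rows, 1 replicate number on each axis; orange points mark 4 named genes. Pearson's r across rows is 0.005, −0.018 and 0.033 from left to right, and AC010323.1 lies apart from it at 3.72, 4.48 and 4.80 in numbers 1, 2 and 3.

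All 3 differences were above 0 in 1711 rows (11.4%) and below 0 in 2237 (14.9%). The day 5 libraries all lay above the uninduced ones in 352 rows (2.34%) and all below in 485 (3.22%). At unadjusted p under 0.05 there were 300 rows (1.99%), and 771 (5.12%) with the replicate number as a block. The block lowered the median SE from 0.198 to 0.144. Libraries of equal number shared part of their spread, least so for number 3 (correlation of deviations from group means 0.11).

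Wide fold changes sat in rows of low abundance. Of 144 rows whose log2 fold change reached 1 in either direction, 74 were higher and 70 lower, and 41 separated the groups. There were 88 of them among 4538 rows with a mean under 5 TPM, 45 among 4524 rows from 5 to 20 TPM, 8 among 4594 rows from 20 to 100 TPM and 3 among 1389 rows above that. Protein-coding genes reached a fold of this size in 0.29% of 10695 rows, miRNA genes in 10.3% of 116 rows, and rows with clone-type symbols in 3.52% of 1875. None of 385 ZNF zinc finger rows did.

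AC010323.1 was the exception to this scatter. It was listed at 3.93, 2.24 and 1.92 TPM in uninduced libraries and at 63.8, 71.3 and 80.4 TPM at day 5, so every day 5 library stood far above every uninduced one. The log2 fold change of AC010323.1 was 4.33 (SE 0.23, 95% interval 3.81 to 4.85; limma adjusted p = 1.47e-04, and 0.00120 with the replicate block). Day 7 libraries held 7.72, 5.52 and 4.67 TPM. The reference tables used here give this symbol no position and no function. With the 6 uninduced and day 5 libraries alone and the block, it no longer passed (adjusted p = 0.0843), and neither did it without replicate number 2 (0.0883).

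NDUFA7, an accessory subunit of respiratory complex I, was the most abundant of the 12 genes named below as lower at day 5. It stood at 146, 140 and 143 TPM in uninduced libraries, at 86.3, 50.7 and 68.7 TPM at day 5, and at 144, 118 and 161 TPM at day 7. At day 5 its log2 fold change came to −1.08 (SE 0.19), from −0.75, −1.45 and −1.04 within numbers.

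Taken as a sum, AC010323.1 and NDUFA7 held 150.2, 142 and 144.5 TPM in uninduced, 150.1, 122 and 149 TPM in day 5, and 152, 124 and 165 TPM in day 7 libraries. The group sums were 146 ± 4.08, 140.4 ± 16.0 and 147 ± 21.3 TPM (SD, n = 3). The day 5 mean lay below the uninduced mean by more than the uninduced SD and less than the day 5 SD. Within number 2 the sum was lower at day 5, 122 against 142 TPM. The share of AC010323.1 in the sum was 2.62%, 1.58% and 1.33% before induction, 42.5%, 58.4% and 53.9% at day 5, and 5.08%, 4.47% and 2.82% at day 7. These rows were set side by side after their values had been seen. Whether they share reads or a locus was not tested, as the tables used here place NDUFA7 (chr19:8308595-8321375) and not AC010323.1.

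**Figure D2:**
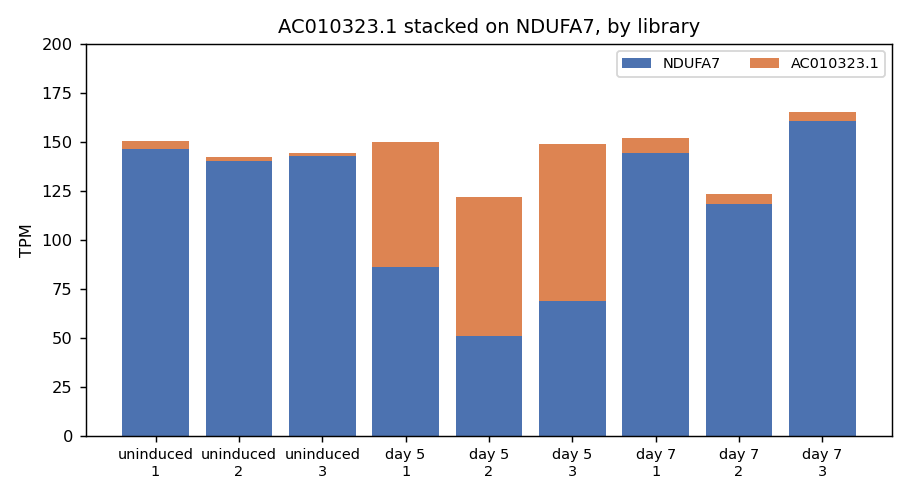
TPM of NDUFA7 (blue) and AC010323.1 (orange) stacked for each of the 9 RNA libraries. The orange part is 63.8 to 80.4 TPM in the 3 day 5 libraries and at most 7.72 TPM in the other 6, while the height of the whole bar runs from 122 to 165 TPM.

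Promoter sequences are shown for EPHB2, ranked first among the higher genes named below, and for C12orf45 and NDUFA7, ranked first and next among the lower ones, since CpG sites are where DNMT3A acts. Each line gives 250 bases before and 50 after the start of the gene, 5′ to 3′ on the gene's own strand, from RefSeq (GRCh38.p14), and capitals mark each CG.
EPHB2 (chr1:22710588-22710887, plus strand): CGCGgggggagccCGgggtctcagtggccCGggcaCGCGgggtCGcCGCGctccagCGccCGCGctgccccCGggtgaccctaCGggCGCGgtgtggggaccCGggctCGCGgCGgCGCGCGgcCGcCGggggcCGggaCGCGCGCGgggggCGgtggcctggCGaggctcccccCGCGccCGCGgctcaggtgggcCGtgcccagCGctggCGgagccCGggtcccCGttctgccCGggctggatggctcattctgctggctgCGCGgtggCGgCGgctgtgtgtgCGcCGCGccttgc
C12orf45 (chr12:104986066-104986365, plus strand): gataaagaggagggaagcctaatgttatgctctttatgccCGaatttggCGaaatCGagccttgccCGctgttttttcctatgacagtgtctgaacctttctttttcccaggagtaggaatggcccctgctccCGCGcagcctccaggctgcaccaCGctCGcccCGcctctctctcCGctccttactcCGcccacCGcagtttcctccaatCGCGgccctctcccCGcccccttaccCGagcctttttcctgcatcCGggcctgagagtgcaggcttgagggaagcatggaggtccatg
NDUFA7 (chr19:8321326-8321625, minus strand): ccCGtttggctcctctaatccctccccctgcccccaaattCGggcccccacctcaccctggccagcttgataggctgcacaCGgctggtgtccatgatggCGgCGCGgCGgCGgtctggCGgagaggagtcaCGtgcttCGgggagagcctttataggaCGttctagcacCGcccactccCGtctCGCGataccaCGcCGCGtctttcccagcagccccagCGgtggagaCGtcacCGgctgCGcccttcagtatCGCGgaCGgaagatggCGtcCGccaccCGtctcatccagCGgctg
The windows hold 49, 17 and 30 CG sites in this order, and all tested genes with a promoter in the table had a median of 26. Only 62.2% of tested rows had one, so no comparison of promoters between higher and lower genes was made.

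The 12 genes named as higher are those with a mean of at least 5 TPM and an ordinary symbol whose day 5 libraries all lay above the uninduced ones, ranked by the smallest of their 3 within-number differences. Of rows with that mean, 2.13% lay wholly above and 2.7% wholly below. They were chosen on this contrast, so their values describe and do not test. EPHB2, a receptor tyrosine kinase for ephrin ligands that guides cell contact and repulsion, led them. It stood at 7.56, 3.26 and 6.16 TPM in uninduced libraries, at 21.8, 15.7 and 14.7 TPM at day 5, and at 23.3, 16.8 and 7.62 TPM at day 7. EPHB2 thus had a log2 fold change of 1.504 (SE 0.38), and no within-number difference was under 1.13. SH3D19, an adaptor protein with SH3 domains, stood at 2.37, 4.18 and 4.32 TPM against 6.16, 11.01 and 13.65 TPM, a log2 fold change of 1.25 (SE 0.38). SORBS3 (vinexin), which links focal adhesions to actin, stood at 8.26, 4.85 and 5.70 TPM against 16.4, 10.6 and 10.1 TPM. For SH3D19 and SORBS3 the day 7 libraries overlapped the uninduced ones. Of 21 tested ephrin and semaphorin guidance genes, 6 lay above and 15 below 0, with a median log2 fold change of −0.09.

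EIF4E, the protein that binds the mRNA cap to start translation, went from 19.7, 11.99 and 10.9 TPM to 29.98, 19.99 and 27.7 TPM, a log2 fold change of 0.85 (SE 0.37). Of 35 translation initiation factors, EIF4E among them, 17 lay above and 18 below 0, with a median log2 fold change of −0.01. KRR1, a factor of small ribosomal subunit assembly, stood at 15.5, 21.6 and 15.4 TPM against 25.5, 33.6 and 23.0 TPM. Its 3 within-number differences were alike at 0.68, 0.61 and 0.55, and day 7 held 25.4, 26.7 and 23.7 TPM. RPL22P1, a pseudogene copy of the ribosomal protein gene RPL22, was the most abundant of the 12, at 1065, 1134 and 1276 TPM against 1423, 1531 and 1822 TPM. Reads of RPL22 may be counted to this copy, so its level is uncertain.

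The other 6 genes in this direction had log2 fold changes between 0.53 and 0.88. GOLGA2P7, a pseudogene of the golgin GOLGA2 and uncertain for the same reason, stood at 17.6, 10.3 and 14.4 TPM against 30.2, 19.0 and 23.4 TPM. PKNOX1, a homeodomain partner of HOX and PBX factors, had the tightest day 5 values, at 13.8, 14.7 and 14.4 TPM against 9.91, 10.1 and 8.56 TPM. SLC35A2, the Golgi transporter of UDP-galactose, went from 8.56 ± 1.12 to 12.8 ± 1.94 TPM, and MFN1, a mitofusin that joins mitochondrial outer membranes, from 16.0 ± 3.55 to 23.7 ± 4.08 TPM (SD, n = 3). SNHG22, a host gene of small nucleolar RNA, went from 4.86 ± 0.94 to 8.13 ± 2.40 TPM. RNVU1-7, a variant of the U1 spliceosomal RNA, stood at 4.69, 4.15 and 4.08 TPM against 9.77, 10.7 and 6.32 TPM.

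**Figure D3:**
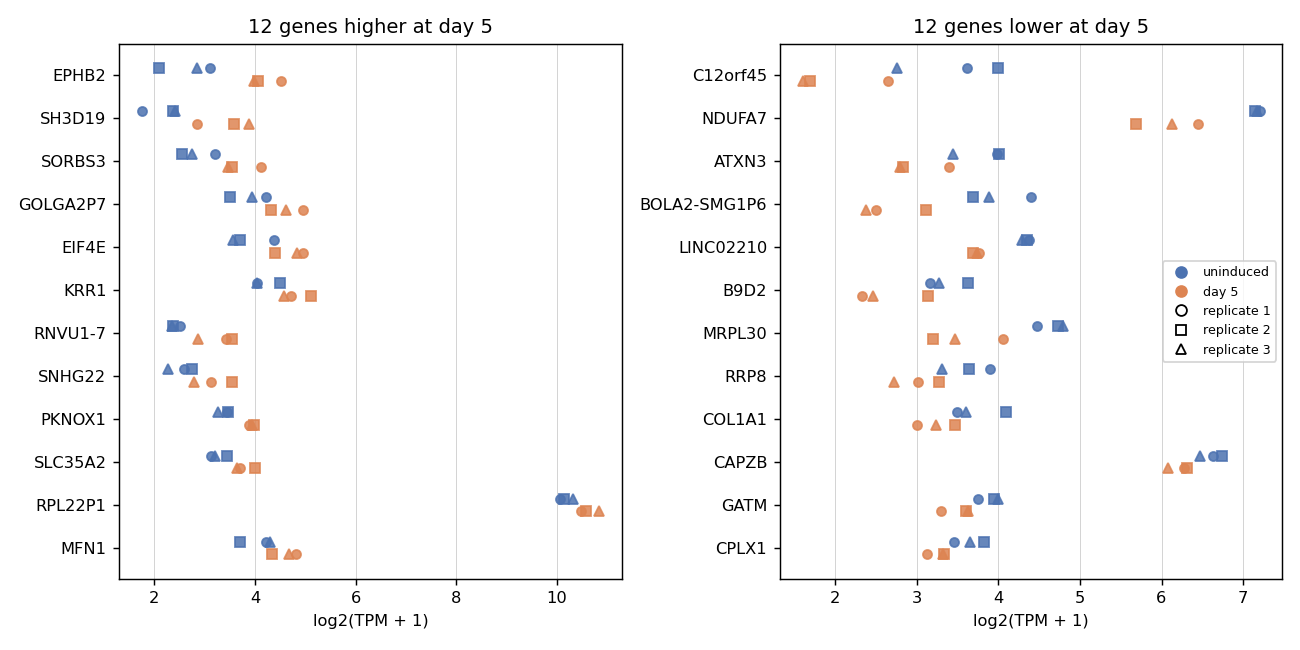
Level as log2(TPM + 1) in the 3 uninduced (blue) and 3 day 5 (orange) libraries for the 12 genes ranked highest in each direction, with the marker shape giving the replicate number. The groups do not touch in any row because that was required of them; the smallest within-number difference was 1.13 for EPHB2 and −0.98 for C12orf45, the first row of each panel.

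Genes that stood lower at day 5 were led by C12orf45, named NOPCHAP1 in RefSeq, a chaperone of the box C/D small nucleolar ribonucleoproteins that guide rRNA methylation. It stood at 11.3, 14.96 and 5.73 TPM in uninduced libraries, at 5.23, 2.23 and 2.03 TPM at day 5, and at 2.61, 1.92 and 2.74 TPM at day 7. The gap between the groups was narrow at day 5, 5.73 against 5.23 TPM, while the log2 fold change was −1.48 (SE 0.36). RRP8, a methyltransferase of ribosomal RNA, stood at 14.0, 11.5 and 8.87 TPM against 7.11, 8.63 and 5.59 TPM, and at 9.93, 15.8 and 11.3 TPM at day 7. LINC02210, a long non-coding RNA on chromosome 17, had the tightest groups, at 19.8, 19.3 and 18.5 TPM against 12.5, 11.85 and 12.3 TPM. Its log2 fold change was −0.61 (SE 0.12), and day 7 held 12.01, 9.66 and 10.4 TPM, also under every uninduced library.

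ATXN3, a deubiquitinase that carries the polyglutamine tract of Machado-Joseph disease, stood at 14.75, 15.05 and 9.85 TPM against 9.49, 6.09 and 5.91 TPM. MRPL30, a protein of the large mitochondrial ribosomal subunit, stood at 21.1, 25.5 and 26.6 TPM against 15.6, 8.15 and 10.0 TPM. Day 7 was uneven for MRPL30, with 23.8, 26.2 and 7.497 TPM. B9D2, a protein of the transition zone of the cilium, stood at 7.96, 11.4 and 8.65 TPM against 4.004, 7.76 and 4.53 TPM. TTC8, a BBSome subunit of the cilium that fell short of the required mean TPM, stood at 4.65, 5.15 and 5.47 TPM against 1.87, 1.62 and 2.59 TPM. The 27 tested genes of the BBSome and intraflagellar transport lay on either side of 0 (13 above, 14 below).

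Another 4 genes in this direction had small and even differences. CAPZB, which caps the growing end of actin filaments, stood at 97.85, 106 and 87.7 TPM against 76.7, 78.7 and 66.6 TPM, with within-number differences of −0.35, −0.42 and −0.39. COL1A1, a collagen chain that serves here as a fibroblast marker, stood at 10.3, 16.1 and 11.2 TPM against 7.04, 10.1 and 8.41 TPM. It made up nearly all of the summed level of the 10 epithelial and fibroblast markers, which ran from 10.3 to 16.1 TPM in uninduced and 7.15 to 10.1 TPM in day 5 libraries, with 6 of the 10 listed at 0. GATM, which makes the precursor of creatine, went from 14.0 ± 1.34 to 10.5 ± 1.39 TPM, and CPLX1, a regulator of vesicle fusion, from 11.6 ± 1.59 to 8.58 ± 0.75 TPM (SD, n = 3).

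BOLA2-SMG1P6, a readthrough of the iron-sulfur assembly gene BOLA2 into a pseudogene of SMG1, stood at 20.1, 11.9 and 13.8 TPM against 4.64, 7.64 and 4.19 TPM. BOLA2 itself, whose span it overlaps and which has a near-identical copy, stood the other way, at 34.7, 32.3 and 29.7 TPM against 37.2, 49.2 and 36.3 TPM. SMG1P6 was at 0, 2.67 and 2.76 TPM against 2.99, 5.91 and 2.86 TPM. Reads of these rows can be split in different ways by the counting, so each level is uncertain. Peaks were looked up by name for DNMT3A, the 12 higher and 12 lower genes and TIGD1, 26 genes with coordinates, and not for list members. Of these 26, BOLA2-SMG1P6 was the 1 gene with a deposited DNMT3A peak within 5 kb, where 0.298% of 13087 tested genes had one. As BOLA2 has a near-identical copy, the place of this peak may be uncertain too, which was not tested. The 482 peaks compare 1 wild-type with 1 knockout library and have no replicate check.

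TIGD1 and AL110118.2 were the rows that went between 0 and at least 1 TPM in all libraries. TIGD1, a gene derived from a transposase, had 0 TPM in every uninduced library and 3.64, 2.55 and 2.97 TPM at day 5, and 3.54, 0 and 0 TPM at day 7. MIR5001, a miRNA gene whose span overlaps it, stood at 7.20, 0.59 and 4.51 TPM before induction and at 0.22, 0.28 and 0.23 TPM at day 5. AL110118.2 was at 1.40, 1.69 and 1.28 TPM in uninduced libraries and listed at 0 in all 3 day 5 libraries. An exact 0 in this table can be a failed estimate, so no fold is given.

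The 14 rows that reached 1 on the log2 scale with 1 sign in all 3 numbers, 9 higher and 5 lower, were singled out after their values had been seen. Besides AC010323.1, EPHB2, SH3D19, TIGD1 and AL110118.2 they were mainly clone-type rows, small RNA genes or rows under 20 TPM. PILRB, an activating immune receptor gene, stood at 17.6, 16.1 and 7.21 TPM against 40.9, 71.1 and 16.5 TPM, and its groups overlapped. MRM2, a methyltransferase of mitochondrial ribosomal RNA, stood at 6.89, 6.93 and 5.68 TPM against 2.07, 2.36 and 1.03 TPM, and at 13.2, 10.2 and 2.55 TPM at day 7. AC090114.3 stood at 4.85, 0 and 0 TPM against 12.7, 8.996 and 10.01 TPM, and AC120114.4 at 0.394, 0 and 0 TPM against 16.3, 5.42 and 4.57 TPM.

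Gene lists were described by their counts and medians, without a set test. Of 39 lists with 1181 entries, 33 had at least 5 tested members, and no member of a list passed. Over all tested rows 45.3% lay above 0 and 54.7% below. List medians ran from −0.16 to 0.20, and the median of all tested rows was −0.02. The median had 1 sign in all 3 numbers for 11 lists, 4 above and 7 below 0.

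The lists that stood highest belong to the stress responses of protein synthesis. When unfolded proteins gather in the endoplasmic reticulum or amino acids run short, cells raise chaperones, secretory factors and, through ATF4, amino acid supply. For ATF4 target genes the median log2 fold change was 0.20, with 25 of 27 tested members above 0 and 15 above 0 in all 3 numbers (11.4% of all tested rows), and the medians were 0.14, 0.24 and 0.12 within numbers 1, 2 and 3. ATF4 itself stood at 652, 352 and 485 TPM in uninduced libraries and 730, 456 and 562 TPM at day 5. The spread between replicates was wider than the difference within a number, and the groups overlapped. XPOT, which exports tRNA from the nucleus, stood at 130.2, 96.7 and 112 TPM against 157, 113 and 126 TPM, and VLDLR, a lipoprotein receptor, at 35.1, 17.5 and 55.6 TPM against 62.7, 31.7 and 51.4 TPM. Without uninduced replicate 2 the ATF4 list's median was −0.06, without day 5 replicate 1 −0.03, and without both libraries of 1 number it lay between 0.14 and 0.23.

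In the unfolded protein response list 26 of 27 members lay above 0 and 18 did so in all 3 numbers, with a median of 0.18 and medians of 0.08, 0.29 and 0.18 within numbers. SEC61B, a subunit of the translocon that carries proteins into the endoplasmic reticulum, stood at 470, 373 and 384 TPM against 451, 457 and 479 TPM. HSP90B1, its resident HSP90 chaperone, stood at 878, 569 and 695 TPM against 937, 675 and 841 TPM, and HYOU1, a stress-induced chaperone, at 78.6, 50.2 and 56.7 TPM against 114, 61.7 and 60.1 TPM. Uninduced replicate 2 was the lowest library for each, and the list's median was 0.03 without it and 0.02 without day 5 replicate 1. Of 23 cytosolic aminoacyl-tRNA synthetases, many of which ATF4 controls, 17 lay above 0 with a median of 0.07, and with medians of 0.00, 0.02 and 0.17 within numbers. The median of this list was 0.02 without day 5 replicate 1 and 0.01 without number 3. QARS1, the glutamine enzyme, went the other way, at 360.1, 357 and 397 TPM against 312, 271 and 347 TPM.

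**Figure D4:**
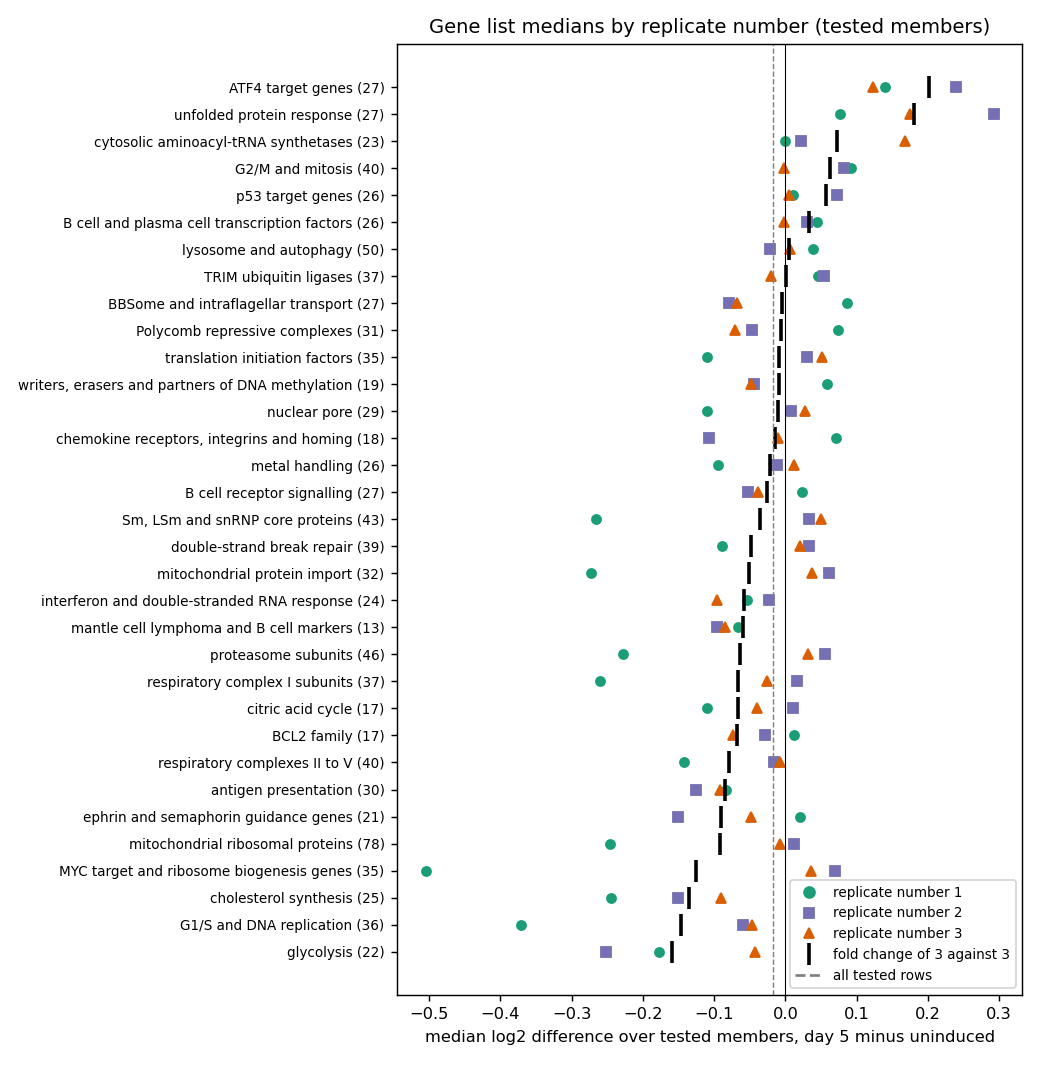
Median difference of day 5 minus uninduced on the log2 scale over the tested members of 33 lists (number of members in brackets), by replicate number (coloured markers) and for 3 against 3 libraries (black ticks); the dashed line is the median of all tested rows, −0.02. ATF4 and unfolded protein response lists lie right of 0 in all 3 numbers, and for MYC, mitochondrial and proteasome lists replicate number 1 lies far left of the other two.

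Among cell cycle genes the early and the late phase stood on opposite sides of 0. G1/S and DNA replication genes, which load and start the replication forks, lay below 0 in 36 of 36, and 15 were below in all 3 numbers (14.9% of all tested rows). Their median was −0.15, but −0.37, −0.06 and −0.05 within numbers 1, 2 and 3, and 0.002 without day 5 replicate 1. CCNE1, the cyclin of the G1/S step, stood at 8.14, 6.23 and 7.06 TPM against 3.29, 5.47 and 5.91 TPM, and MCM5, a subunit of the replicative helicase, at 166, 197 and 154 TPM against 116, 177 and 142 TPM. G2/M and mitosis genes lay above 0 in 34 of 40 with a median of 0.06. Within numbers their medians were 0.09, 0.08 and −0.002, and without uninduced replicate 1 it was −0.03. PRC1, which bundles the midzone of the spindle, stood at 28.55, 36.65 and 39.7 TPM against 48.6, 45.9 and 33.6 TPM.

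Within replicate numbers, the lists of growth and mitochondria had their lowest medians in number 1. MYC target and ribosome biogenesis genes had medians of −0.50, 0.07 and 0.04 within numbers, mitochondrial ribosomal proteins −0.25, 0.01 and −0.01, complex I subunits −0.26, 0.02 and −0.03, and mitochondrial protein import −0.27, 0.06 and 0.04. Sm, LSm and snRNP proteins (−0.27, 0.03 and 0.05) and proteasome subunits (−0.23, 0.06 and 0.03) had the same shape. For the 3 against 3 comparison the MYC list's median was −0.13, and without day 5 replicate 1 it was 0.06. These medians also depended on uninduced replicate 2. Without that library they were −0.007 for the MYC list, 0.02 for mitochondrial protein import, 0.04 for Sm, LSm and snRNP proteins and 0.003 for proteasome subunits. Mitochondrial ribosomal proteins then had −0.04 and complex I subunits −0.06. Single members departed from their list in size or direction. NDUFA5, a complex I subunit, stood at 88.3, 94.7 and 82.7 TPM against 53.2, 46.3 and 75.3 TPM. It lay below 0, as 32 of the 37 complex I subunits did, but by more (−0.62 against a list median of −0.07). MRPL42 of the large mitochondrial ribosomal subunit stood at 9.73, 8.25 and 9.50 TPM against 22.8, 18.2 and 9.85 TPM. SNRPD2, a core protein of spliceosomal snRNPs, stood at 587, 634 and 569 TPM against 720, 924 and 833 TPM with a log2 fold change of 0.46 (SE 0.11). For the 13 protein-coding genes of mitochondrial DNA the table lists 0 throughout.

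The medians of the glycolysis and cholesterol synthesis lists were below 0 in each number. Glycolysis genes lay below 0 in 21 of 22, with a median of −0.16 and −0.18, −0.25 and −0.04 within numbers. PFKL, a subunit of the enzyme that commits glucose to glycolysis, stood at 149, 136 and 143 TPM against 131, 121 and 129 TPM, and its groups did not overlap. Without uninduced replicate 2 the glycolysis median was 0.01. Cholesterol synthesis genes lay below 0 in 20 of 25, with −0.24, −0.15 and −0.09 within numbers, and 0.03 without uninduced replicate 2. EBP, a sterol isomerase, stood at 60.3, 79.2 and 76.8 TPM against 15.2, 80.6 and 60.3 TPM, with within-number differences of −1.92, 0.02 and −0.34.

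Genes of B cell function divided in the same comparison. Antigen presentation genes lay below 0 in 23 of 30, 14 of them in all 3 numbers, with a median of −0.08 that stayed under 0 without any 1 library (−0.15 to −0.03). CIITA, the master activator of MHC class II, stood at 52.2, 64.8 and 64.1 TPM against 39.9, 51.7 and 48.0 TPM, and NLRC5, its counterpart for class I, at 43.4, 67.4 and 40.8 TPM against 33.2, 42.1 and 33.4 TPM. The interferon-inducible proteasome subunit PSMB8 stood at 162, 228 and 177 TPM against 137, 179 and 152 TPM. Of 27 B cell receptor signalling genes 8 lay above and 19 below 0. The adaptor BLNK stood at 47.6, 48.3 and 34.4 TPM against 58.0, 53.2 and 56.6 TPM, and its groups did not overlap. The 26 B cell and plasma cell transcription factors had a median of 0.03.

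Lists of the damage and silencing responses stood on either side of 0. Of 26 p53 target genes 15 lay above 0 (median 0.06), and of 39 double-strand break repair genes 14 (median −0.05). FBXO22 stood at 16.1, 13.3 and 12.1 TPM against 6.61, 13.6 and 8.365 TPM, in the direction opposite to the p53 list's median. Of 24 interferon and double-stranded RNA response genes 8 lay above 0. IRF9, which carries the interferon signal to DNA, differed in sign between replicates, with 3.64, 5.07 and 3.32 TPM against 16.2, 3.15 and 11.5 TPM. Of 35 germline and cancer-testis genes, whose promoters are held silent by methylation in most somatic cells, 1 was tested and 25 were listed at 0 in all 6 libraries. That gene, TEX19, stood at 27.75, 54.4 and 46.3 TPM against 30.7, 43.8 and 43.5 TPM. The 31 tested Polycomb genes lay on either side of 0 (15 above, 16 below).

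TRIM24, an E3 ligase that reads histone marks and acts on p53, had the smallest p of the TRIM ubiquitin ligases, at 14.4, 19.6 and 13.8 TPM against 26.4, 23.9 and 26.3 TPM, a log2 fold change of 0.66 (SE 0.17). The list's median was 0.00, with 19 members above and 18 below 0. NUP62 of the nuclear pore stood at 61.0, 68.9 and 62.2 TPM against 55.7, 50.3 and 48.3 TPM. ACO1, the cytosolic aconitase that senses iron, stood at 3.72, 2.66 and 4.37 TPM against 2.79, 1.29 and 1.72 TPM.

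The summed levels of 5S and U1 RNA were higher at day 5 in each replicate number, a view taken after their values had been seen. They lack the poly(A) tail on which the mRNA kit selects. The 17 tested rows of 5S ribosomal RNA summed to 16.3, 31.8 and 31.0 TPM in uninduced, 60.7, 46.5 and 39.3 TPM in day 5, and 38.5, 32.4 and 17.5 TPM in day 7 libraries. All 17 lay above 0 at day 5, and 12 did so in all 3 numbers. As near-identical copies they share reads and are not independent. The 10 rows of the U1 spliceosomal RNA and its variants summed to 46.8, 65.0 and 45.4 TPM against 91.8, 94.3 and 52.4 TPM. The 14 rows of U2, another spliceosomal RNA, summed to 21.7, 26.5 and 34.1 TPM against 36.7, 43.0 and 26.3 TPM, and 4 were higher in all 3 numbers. 7SL, the RNA of the signal recognition particle, stood at 363, 454 and 412 TPM against 643, 614 and 270 TPM, and 7SK, which holds the elongation factor P-TEFb inactive, at 71.5, 88.7 and 99.98 TPM against 124, 137.9 and 69.0 TPM. For U2, 7SL and 7SK replicate 3 thus went the other way, and 5.8S ribosomal RNA averaged 165 ± 41.8 and 161 ± 6.45 TPM (SD, n = 3). None of these rows passed.

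**Figure D5:**
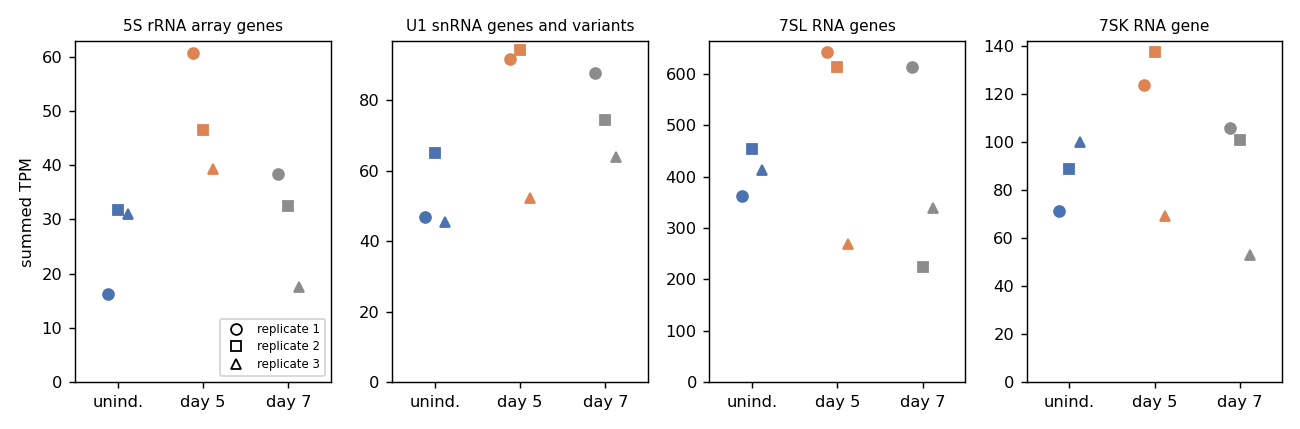
Summed TPM of 4 families of short structured RNA in uninduced (blue), day 5 (orange) and day 7 (grey) libraries, with the marker shape giving the replicate number; each panel has its own axis starting at 0. The 5S sums at day 5 (39.3 to 60.7 TPM) lie above all uninduced sums (16.3 to 31.8 TPM), and for 7SL and 7SK day 5 replicate 3 lies below them.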

How the data were processed

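RNA was measured in 3 libraries per group. The authors deposited expression as TPM, 1 table for 9 libraries whose columns sum to 1000000, so read depth cannot be read from it. Tools named, without roles, per the submitters' processing notes are DESeq2, HISAT2 2.1, Genrich 1.0, StringTie 1.3.4, ChIPseeker and deepTools, and the build is hg38. The sources used here do not give the strand setting or annotation release. The deposited peak list gives each peak a −log10 p-value from the authors' caller and was used for position only.

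Rows with at least 1 TPM in at least 3 of the 9 libraries were kept, and log2(TPM + 1) was fitted with limma 3.58.1 in R 4.3.3 (3 group means, intensity trend, all 9 libraries, Benjamini-Hochberg adjusted p under 0.05). P-values rest on the spread between the 3 replicates within each group, pooled over the 9 libraries and with information shared across genes. The 3 pairs of equal replicate number had correlated deviations from their group means (0.32, 0.44 and 0.11), each above the planned bound of 0.1. Among pairs of unequal number the values ran from −0.41 to 0.13. Uninduced replicate 3 with day 5 replicate 1 (0.13) thus exceeded the equal pair of number 3. The labels do not state a pairing across groups, so it rests on these values and is weakest for number 3. In an exact sign-flip test 3 pairs alone cannot reach p under 0.25.

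Members, lists and alternatives were chosen with earlier results of these data known. Named by rule were DNMT3A, called genes and the 12 largest even differences in each direction as described above. So were rows that went between 0 and 1 TPM or more, and the 3 members of each list with the smallest p. Overlapping genes stand beside them. Outside this rule, ATF4, HYOU1, KIF3C, ADCY3, PILRB, MRM2, AC090114.3 and AC120114.4 were added after their values were seen. The same holds for members of the DNA methylation list and the short RNAs. Of tested rows 87% matched a RefSeq gene of GRCh38.p14, and 62.2% had a promoter (66.7% and 75% of the 12 higher and 12 lower genes), so the planned CpG comparison is void. The fit was tested on simulated data. Alternatives were the pseudocount, the filter, 2 scalings, the replicate block, the 6 libraries alone, no trend, and leaving out libraries.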

Additional observations from a re-analysis of the deposited data

Results flagged for a closer look

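AC010323.1 differed between the induced groups. From day 5 to day 7 it fell by 3.40 on the log2 scale (limma adjusted p = 0.00131), from 71.8 ± 8.31 to 5.97 ± 1.58 TPM (SD, n = 3), and every day 7 library stood below every day 5 library. The day 7 libraries were closer to the uninduced mean of 2.70 ± 1.08 TPM.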

How the results depend on the processing

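The log2 fold change of AC010323.1 lay between 4.10 and 4.74 over 18 settings and passed in 16 (adjusted p from 7.87e-05 to 0.0883). The pairing gave 2 fits: with the replicate block over 9 libraries it passed, and the genes at unadjusted p under 0.05 at day 5 went from 300 to 771, while no other call changed; with the replicate block and the 6 libraries alone it did not (4.33, adjusted p = 0.0843), so that 0 genes were called at day 5, with 749 at unadjusted p under 0.05. Without a filter 3 genes were called, MIR563 and RNU6-1285P added, and 926 had unadjusted p under 0.05; a minimum of 5 TPM left 154. Leaving out libraries gave 0 to 4 genes called at day 5 and between 241 and 585 at unadjusted p under 0.05. It was 0 without replicate number 2 (AC010323.1 at 4.26, adjusted p = 0.0883; its range with libraries left out was 4.10 to 4.64), and 4 without number 1, where AL354798.1, AC026954.2 and AC090114.3 were added. It was 3 without uninduced replicates 1 or 3 or day 5 replicate 1, and 2 without uninduced replicate 2, day 5 replicate 3 or number 3. In these fits a lone or paired library is assumed to vary like the other groups. The median near DNMT3A was −0.0245 in a window of 5 Mb. Of 2204 values of named genes 8 reversed, none past the threshold. With libraries left out, the log2 fold change of TEX19 ran from −0.362 to 0.111 (above 0 without uninduced replicate 2, day 5 replicate 1 or number 2), the log2 fold change of ID3 from −0.536 to 0.0216 and the log2 fold change of SPIB from −0.987 to 0.0906 (above 0 without day 5 replicate 1). The log2 fold change of PCGF1 ran from −0.0260 to 0.358 and the log2 fold change of ATM from −0.0263 to 0.346 (below 0 without number 1), and the log2 fold change of TIMM9 from −0.0570 to 0.503 (below 0 without number 3). Of 647 list medians 66 moved by more than the SD between numbers. Quantile normalization and median centring shifted the median of all rows by under 0.1. The causes were not tested. Depth is unknown, so no limit for rows listed at 0 is given.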
